A study of Mus musculus with 19 samples.

Results

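The genes described are the gasdermin C cluster (Gsdmc, Gsdmc2, Gsdmc3 and Gsdmc4) together with 4 genes tied to type 2 immunity in the gut, Pla2g4c, Retnlb, Il4ra and Il13ra1. These 8 of the 55487 genes in the files had been picked on measured values of these mice, and which comparison picked them is not recorded, so every comparison of their levels below is a description and carries no p-value. Crypts came from the small intestine of C57BL/6 mice that were 10 to 16 weeks old. The mice were either wild type for the neurotensin gene Nts (NT+/+) or homozygous for its loss (NT-/-), and the study's methods name the ad libitum–fed controls of its fasting work as littermates matched for sex and age. They were fed standard chow ad libitum (AL) or were fasted for 48 hours with water (Fast). Total RNA from 5 NT+/+ AL, 4 NT-/- AL, 5 NT+/+ Fast and 5 NT-/- Fast mice was depleted of ribosomal RNA and sequenced, and although the study describes fed and fasted mice with an Lgr5-EGFP reporter allele, the labels of the sequenced mice do not list one. Both sexes were in every group. The mouse titled NT+/+ Fast 5 has the genotype label NT-/-, and it is kept with its title throughout.

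IL-4 and IL-13 are the signature cytokines of type 2 immunity, the response of barrier tissues to worms and allergens. On epithelial cells they bind the IL-4 receptor alpha chain, encoded by Il4ra, paired with the IL-13 receptor alpha 1 chain, encoded by Il13ra1, and the paired chains activate the transcription factor STAT6 through JAK1 and TYK2. In the small intestine this pathway is known for expanding tuft and goblet cells, for inducing the goblet cell product RELM-beta, encoded by Retnlb, and for raising gasdermin C, a pore-forming protein of the epithelium. Pla2g4c encodes a cytosolic phospholipase A2 that frees fatty acids from membrane lipids.

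The 4 gasdermin C genes lie side by side on the minus strand of chromosome 15 (GRCm38), within 136330 bases from 63775968 to 63912297. Gsdmc (ENSMUSG00000079025) spans 63775968 to 63808759, Gsdmc2 (ENSMUSG00000056293) 63824346 to 63845177, Gsdmc3 (ENSMUSG00000055827) 63857724 to 63878558 and Gsdmc4 (ENSMUSG00000055748) 63891264 to 63912297. Between and beside them, on the plus strand, the annotation places the pseudogenes Gsdmcl1, Gsdmcl2 and Gsdmcl-ps. Pla2g4c (ENSMUSG00000033847) is on chromosome 7 at 13324655 to 13360672 on the plus strand, and Il4ra (ENSMUSG00000030748) is on the same chromosome and strand at 125552120 to 125579474. Retnlb (ENSMUSG00000022650) is at 48816856 to 48818892 of chromosome 16 and Il13ra1 (ENSMUSG00000017057) at 36112110 to 36171259 of chromosome X, both on the plus strand.

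The gasdermin C genes are close copies of each other, which bears on every value below. The coding sequences of Gsdmc2 and Gsdmc3 were 97.1% identical, Gsdmc4 was 93.8% identical to each of them, and Gsdmc was 86.9% to 87.5% identical to the other 3. Of all 100-base windows of their transcripts, the length of a read here, 7.03% in Gsdmc, 28.6% in Gsdmc2, 28.4% in Gsdmc3 and 20.2% in Gsdmc4 occurred unchanged in another gene or pseudogene of the family, whereas none of the windows of Pla2g4c did. A read from such a window cannot be placed, and the authors' program divided it between the copies, so the 4 rows are given singly and as their sum. The 60-base stretch of coding sequence in which the copies differ most within a single exon is shown for each gene, on its own strand, with capitals at the bases that differ from Gsdmc4. The stretches are chr15:63893817-63893876 in exon 9 of 12 of Gsdmc4, chr15:63826870-63826929 in exon 11 of 14 of Gsdmc2 (11 bases differ), chr15:63860300-63860359 in exon 10 of 13 of Gsdmc3 (8 bases differ) and chr15:63778646-63778705 in exon 9 of 12 of Gsdmc (7 bases differ).
Gsdmc4: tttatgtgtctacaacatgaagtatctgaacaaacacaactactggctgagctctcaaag
Gsdmc2: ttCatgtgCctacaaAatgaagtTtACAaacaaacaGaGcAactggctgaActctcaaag
Gsdmc3: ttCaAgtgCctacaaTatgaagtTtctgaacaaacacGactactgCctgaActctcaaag
Gsdmc: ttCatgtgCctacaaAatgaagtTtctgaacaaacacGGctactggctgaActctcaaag

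RefSeq promoter sequence (GRCm38.p6) was at hand for Pla2g4c (2 starts), Gsdmc3, Il4ra and Il13ra1, and Gsdmc, Gsdmc2, Gsdmc4 and Retnlb were not matched. The 250 bases before the start of Gsdmc3 (chr15:63878559-63878808, minus strand) and before the downstream start of Pla2g4c (chr7:13329072-13329321, plus strand) are shown because these genes had the largest differences with feeding, with the letters TATAA in capitals.
Gsdmc3: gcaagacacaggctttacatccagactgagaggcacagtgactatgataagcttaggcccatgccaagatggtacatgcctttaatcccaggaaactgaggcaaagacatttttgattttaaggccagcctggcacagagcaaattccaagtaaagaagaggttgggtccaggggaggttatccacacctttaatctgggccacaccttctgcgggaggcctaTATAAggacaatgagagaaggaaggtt
Pla2g4c: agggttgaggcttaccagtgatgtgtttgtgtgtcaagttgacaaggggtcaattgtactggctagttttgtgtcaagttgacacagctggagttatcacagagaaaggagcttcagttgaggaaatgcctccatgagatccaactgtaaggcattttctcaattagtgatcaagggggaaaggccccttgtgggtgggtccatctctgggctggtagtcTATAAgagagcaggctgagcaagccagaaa
The letters TATAA begin 27 bases before the start of Gsdmc3 and 30 bases before that of Pla2g4c. They were searched on the gene's own strand after the letters had been seen, and 16% of 32851 mouse promoters hold them in the same 250 bases. The upstream start of Pla2g4c and the starts of Il4ra and Il13ra1 do not hold them there. The palindromic motifs TTCNNNNGAA and TTCNNNGAA, which STAT proteins can bind, were in none of the 5 windows of 300 bases, against 6.95% and 8.30% of all promoters of that length (14.6% with either).

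Sequencing depth was 9059418 to 35068669 counts per mouse, with group medians of 19808118 in NT+/+ AL, 19254063.5 in NT-/- AL, 17211169 in NT+/+ Fast and 17507878 in NT-/- Fast, so depth limits the values of genes at few counts. Levels are given as CPM, counts scaled to the size of each library. Nts itself was at 4.98 to 8.59 CPM in every mouse titled NT+/+, including 5.43 CPM in the mouse with the disagreeing label, and at 0.144 to 0.793 CPM in every NT-/- mouse. Its log2 fold change between NT-/- and NT+/+ mice was -4.70 ± 0.36 (SE) ad libitum (adjusted p = 5.8e-07, edgeR) and -3.56 ± 0.32 after fasting (adjusted p = 1.4e-05, edgeR). Every SE of a log2 fold change given here is an approximation worked back from the F statistic of the edgeR test. Crypt genes were present in every group, with mean levels of 911 to 1809 CPM for the stem cell gene Olfm4 and 5991 to 7695 CPM for the Paneth cell lysozyme Lyz1, but so were genes of the absorptive villus cells such as Apoa1, at 951 and 959 CPM in the fed groups and 2495 and 3235 CPM in the fasted groups.

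Pla2g4c, Gsdmc2, Gsdmc3 and Gsdmc4 were higher in every ad libitum–fed mouse than in any fasted mouse of the same genotype, Gsdmc was at or near 0 in all groups, and the receptor genes differed by at most 1.48-fold. Against the fed mice, the fitted level of Pla2g4c was 519-fold lower in fasted NT+/+ mice and 748-fold lower in fasted NT-/- mice, and that of the Gsdmc sum was 64.1-fold and 127-fold lower. Retnlb was low in most mice and its groups overlapped. In bulk RNA, fewer cells of a type and less RNA per cell cannot be told apart.

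Pla2g4c stood at 1612, 472, 36.6, 14.3 and 6.19 CPM in the 5 NT+/+ AL mice, in the order of their numbers. In the 4 NT-/- AL mice it was at 200.1, 1835, 57.6 and 52.7 CPM. After fasting it was at 1.62, 0.751, 0.772, 0.457 and 0.504 CPM in NT+/+ mice and at 1.18, 1.14, 0.116, 0.888 and 0.476 CPM in NT-/- mice. Every fed mouse was above every fasted mouse, yet the fed mice themselves spread widely, with the mice numbered 1 and 2 far above the others. The lowest fed NT+/+ mouse was 3.81 times the highest fasted NT+/+ mouse, and the fed NT+/+ mice spanned 261-fold among themselves. The lowest fed NT-/- mouse was 44.8 times the highest fasted NT-/- mouse, and the fed NT-/- mice spanned 34.8-fold. On the mean ± SD scale the groups were at 428 ± 691 CPM (NT+/+ AL, n = 5), 536 ± 869 CPM (NT-/- AL, n = 4), 0.821 ± 0.470 CPM (NT+/+ Fast, n = 5) and 0.758 ± 0.454 CPM (NT-/- Fast, n = 5). These means rest on the highest mice, and the ratio of the medians, 48.8-fold in NT+/+ and 145-fold in NT-/-, was smaller than the ratio of the fitted means.

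Together the gasdermin C genes, whose product perforates membranes when cleaved, reached 4125, 1384, 563, 344 and 234 CPM in the NT+/+ AL mice as the Gsdmc sum. The sum was at 1560, 4069, 608 and 669 CPM in the NT-/- AL mice. Fasted NT+/+ mice had 51.9, 22.2, 11.3, 6.22 and 12.3 CPM, and fasted NT-/- mice had 28.0, 23.4, 2.25, 8.48 and 6.23 CPM. No fed mouse overlapped a fasted mouse of its genotype, and the gap was wider than for Pla2g4c in NT+/+ mice, where the lowest fed mouse was 4.52 times the highest fasted mouse, and narrower in NT-/- mice, where it was 21.7 times. The group means were 1330 ± 1626 CPM (SD, n = 5) in NT+/+ AL, 1727 ± 1621 CPM (n = 4) in NT-/- AL, 20.8 ± 18.3 CPM (n = 5) in NT+/+ Fast and 13.7 ± 11.3 CPM (n = 5) in NT-/- Fast. As a share of all counts of a library, the 4 genes took 0.0245% to 0.358% in NT+/+ AL, 0.0632% to 0.425% in NT-/- AL, 0.000646% to 0.00521% in NT+/+ Fast and 0.000223% to 0.00264% in NT-/- Fast.

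**Figure D1:**
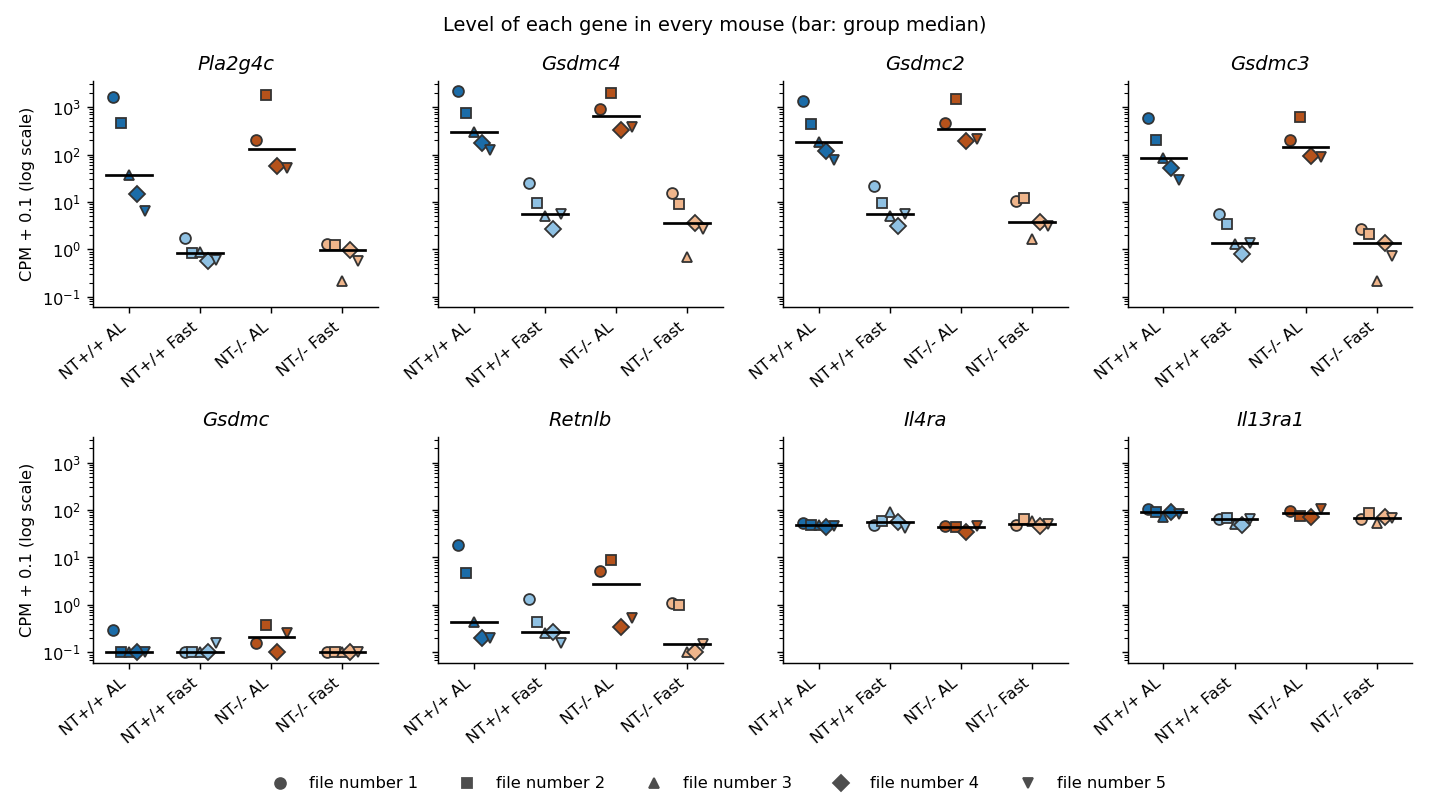
Level of each of the 8 genes in every mouse, as CPM plus a small constant on a log axis, with 1 point per mouse, the marker shape giving the number in the mouse's file name and a bar at the group median. In Pla2g4c, Gsdmc4, Gsdmc2 and Gsdmc3 every ad libitum–fed mouse lies above every fasted mouse, whereas Il4ra lies between 34.5 and 88.8 CPM in all 19 mice.

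Gsdmc4 was the largest of the copies in fed mice. It was at 2151, 738, 292, 176 and 127 CPM in NT+/+ AL and at 895, 1977, 323 and 372 CPM in NT-/- AL. In fasted mice it was at 24.9, 9.35, 5.04, 2.57 and 5.60 CPM (NT+/+) and at 15.1, 9.08, 0.578, 3.45 and 2.54 CPM (NT-/-). Gsdmc2 and Gsdmc3 followed the same mice up and down. Gsdmc2 ranged from 77.8 to 1376 CPM in NT+/+ AL, 193 to 1475 CPM in NT-/- AL, 2.97 to 21.7 CPM in NT+/+ Fast and 1.56 to 12.2 CPM in NT-/- Fast. Gsdmc3 ranged from 29.4 to 597 CPM in NT+/+ AL, 88.0 to 616 CPM in NT-/- AL, 0.685 to 5.39 CPM in NT+/+ Fast and 0.116 to 2.62 CPM in NT-/- Fast. Gsdmc, the namesake of the cluster, was at or near 0 throughout. It had 4 counts in NT+/+ AL 1 and 0 in the other 4 mice of that group, 2, 5, 0 and 3 counts in NT-/- AL, 1 count in NT+/+ Fast 5 with 0 in the other 4, and 0 counts in all 5 NT-/- Fast mice. A count of 0 allows up to 3 counts, which is 0.0885 to 0.340 CPM at the depths of these mice and covers counting error only.

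How the counts were divided between the copies shifted with feeding. Gsdmc4 took 48.6% to 57.4% of the Gsdmc counts in the 9 fed mice and 26.7% to 53.7% in the 10 fasted mice. Gsdmc2 took 29.9% to 36.3% in the fed mice and 37.0% to 68.2% in the fasted mice, so that the ranges did not overlap, and Gsdmc3 took 12.5% to 15.1% and 5.18% to 15.2%. The widest departures came from the thinnest data, since the fasted mice had 39 to 896 Gsdmc counts and the fed mice 4849 to 85972. Because the program assigns reads that 2 copies share by the reads that tell them apart, the split between the rows is uncertain. Gsdmcl2, a transcribed pseudogene within the cluster that shares 11% of its 100-base windows with the family, was also at 7.54 to 167 CPM in NT+/+ AL, 21.1 to 174 CPM in NT-/- AL and at most 1.28 CPM in fasted mice.

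**Figure D2:**
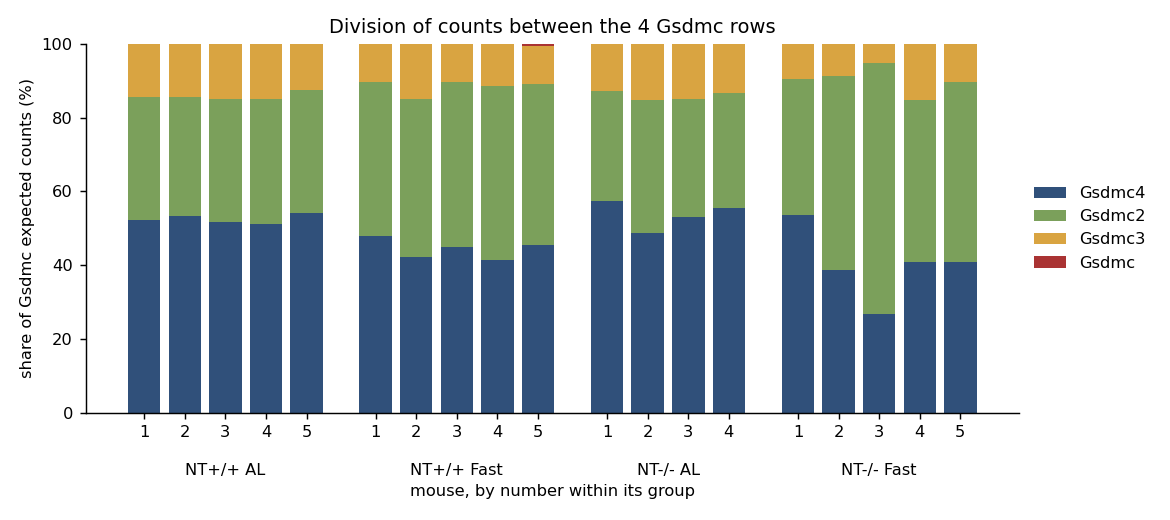
Share of each mouse's Gsdmc expected counts (percent) given to Gsdmc4, Gsdmc2, Gsdmc3 and Gsdmc, with 1 bar per mouse in the order of the numbers within each group. Gsdmc2 takes 29.9% to 36.3% of the bar in every fed mouse and 37.0% to 68.2% in every fasted mouse.

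Retnlb, which encodes a resistin-like protein that goblet cells secrete, was at 18.04, 4.67, 0.330, 0.102 and 0.0967 CPM in the NT+/+ AL mice. It was at 4.99, 8.55, 0.241 and 0.426 CPM in the NT-/- AL mice. After fasting it was at 1.22, 0.341, 0.154, 0.171 and 0.0560 CPM in NT+/+ mice and at 1.02, 0.908, 0, 0 and 0.0528 CPM in NT-/- mice. Mice 1 and 2 of each group were the highest, and the fed mice outside that pair lay within the range of the fasted mice. In counts these levels were 376, 105, 5, 2 and 2 in NT+/+ AL and 169, 158, 5 and 8 in NT-/- AL, against 21 or fewer in every fasted mouse, so most mice sit near the limit of detection. The means were 4.65 ± 7.73 CPM (SD, n = 5), 3.55 ± 3.99 CPM (n = 4), 0.388 ± 0.475 CPM (n = 5) and 0.395 ± 0.519 CPM (n = 5) in NT+/+ AL, NT-/- AL, NT+/+ Fast and NT-/- Fast.

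Il4ra, the receptor chain that binds IL-4, lay within a narrow range. It was at 53.2, 49.3, 48.5, 44.3 and 46.9 CPM in NT+/+ AL and at 46.9, 43.6, 34.5 and 45.3 CPM in NT-/- AL. Fasted NT+/+ mice had 47.3, 57.3, 88.8, 55.2 and 42.0 CPM and fasted NT-/- mice had 48.8, 65.7, 59.4, 46.8 and 50.1 CPM. The groups overlapped, and the highest value belonged to NT+/+ Fast 3. The means were 48.5 ± 3.3 CPM (SD, n = 5) in NT+/+ AL, 42.6 ± 5.5 CPM (n = 4) in NT-/- AL, 58.1 ± 18.2 CPM (n = 5) in NT+/+ Fast and 54.1 ± 8.1 CPM (n = 5) in NT-/- Fast.

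Il13ra1, which completes the receptor for both cytokines on epithelium, was at 105, 90.2, 70.3, 89.0 and 83.6 CPM in NT+/+ AL and at 97.0, 75.9, 71.8 and 105 CPM in NT-/- AL. It was at 65.5, 67.1, 49.5, 48.9 and 64.7 CPM in NT+/+ Fast and at 65.0, 88.6, 52.8, 70.6 and 68.3 CPM in NT-/- Fast. In NT+/+ mice the lowest fed value, 70.3 CPM, lay just above the highest fasted value, 67.1 CPM, and in NT-/- mice the groups overlapped. The means were 87.7 ± 12.7 CPM (SD, n = 5), 87.5 ± 16.2 CPM (n = 4), 59.1 ± 9.1 CPM (n = 5) and 69.1 ± 12.9 CPM (n = 5) in NT+/+ AL, NT-/- AL, NT+/+ Fast and NT-/- Fast.

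Compared per length, as the TPM that the authors deposited, a level scaled by transcript length, the order of the genes turned over with feeding. The median levels in NT+/+ AL mice ran from Gsdmc4 at 154 TPM through Gsdmc2 at 97.6, Gsdmc3 at 45.2, Il13ra1 at 28.4, Il4ra at 14.8 and Pla2g4c at 14.7 to Retnlb at 0.57 and Gsdmc at 0 TPM. The levels of Il4ra and Pla2g4c were neighbors in that order only by their medians, since Pla2g4c ranged far to either side. In NT+/+ Fast mice the receptors led, with median levels of 19.1 TPM for Il4ra and 17.3 TPM for Il13ra1, followed by Gsdmc4 at 2.83, Gsdmc2 at 2.60, Gsdmc3 at 0.67, Retnlb at 0.33 and Pla2g4c at 0.31 TPM. The same 2 receptors led in NT-/- Fast mice, at 20.2 TPM for Il13ra1 and 15.1 TPM for Il4ra. Ranked by TPM among the protein-coding genes of a mouse, Gsdmc4 stood between places 49 and 1114 in NT+/+ AL and 43 and 392 in NT-/- AL. It stood between places 6172 and 11238 in NT+/+ Fast and 7780 and 12952 in NT-/- Fast.

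In the edgeR fit over all 19 mice, 7 of the 8 genes passed the filter on low counts and Gsdmc did not. With fasting in NT+/+ mice 5 of the 7 were past an adjusted p of 0.05, each lower in fasted mice, where 21.6% of all 17875 genes tested were past it and 10.4% were past it and lower. With fasting in NT-/- mice 4 of the 7 were past it, all lower, against 25.2% of all genes and 12.6% lower. The 4 shared by both were Pla2g4c, Gsdmc2, Gsdmc3 and Gsdmc4, and the fifth was Il13ra1. In 4 members, the same ones, every fed mouse was also above every fasted mouse in both genotypes, and in Il13ra1 in NT+/+ mice, against 6.97% of all genes in NT+/+ and 10.8% in NT-/- mice. Since the members were picked on these mice, nothing is read from these counts.

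The fitted log2 fold change with fasting was -9.02 ± 1.65 (SE) in NT+/+ and -9.55 ± 1.74 in NT-/- mice for Pla2g4c, the lowest of all 17875 genes in both. For Gsdmc3 it was -6.36 ± 0.90 and -7.59 ± 1.01, for Gsdmc4 -6.20 ± 0.95 and -7.18 ± 1.01 and for Gsdmc2 -5.63 ± 0.89 and -6.61 ± 0.96, which placed these copies at ranks 3, 4 and 6 from the lowest in NT+/+ and at ranks 4, 6 and 7 in NT-/- mice. The Gsdmc sum, which does not depend on the division of reads between its rows, was at -6.00 ± 0.94 and -6.99 ± 1.00. Single mice carry part of this: without NT+/+ AL 1, Pla2g4c was at -7.33 and the Gsdmc sum at -4.93 in NT+/+ mice, without NT+/+ Fast 1 the sum was at -6.68, and without NT-/- AL 2, Pla2g4c was at -7.18 and the sum at -6.13 in NT-/- mice. Retnlb was at -3.59 ± 1.30 and -3.20 ± 1.38, not past the threshold in either genotype here, though it was past it under 9 of 26 alternatives in NT+/+ and 3 of 27 in NT-/- mice. Il13ra1 was at -0.57 ± 0.14 and -0.35 ± 0.15, and Il4ra at 0.26 ± 0.15 and 0.34 ± 0.16.

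**Figure D3:**
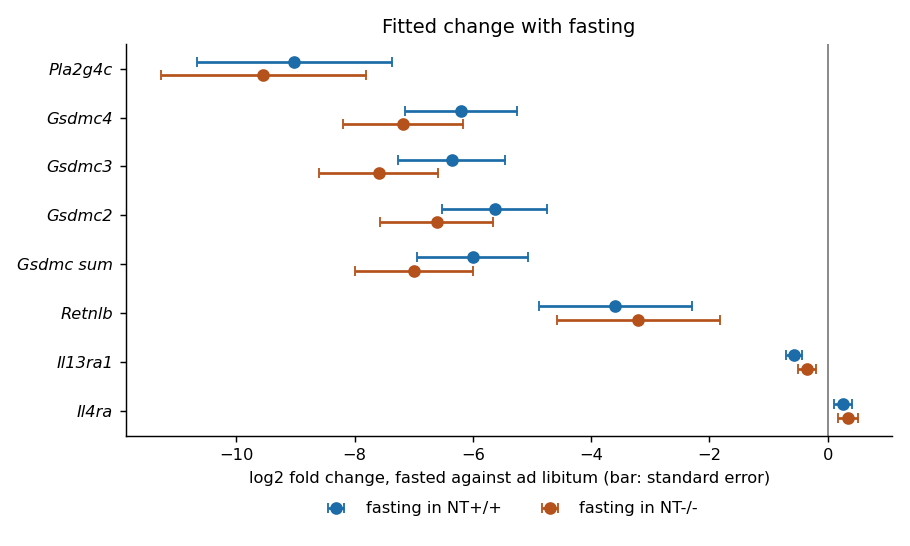
Fitted log2 fold change with fasting (horizontal axis, fasted against ad libitum) for each tested gene and for the Gsdmc sum in NT+/+ and NT-/- mice. Bars are 1 approximate standard error, worked back from the F statistic. Pla2g4c lies lowest at -9.02 and -9.55, the Gsdmc rows lie between -5.63 and -7.59, and Il4ra lies at 0.26 and 0.34.

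Loss of neurotensin moved none of these genes past the threshold. Between the genotypes, 0 of the 7 genes were called ad libitum and 0 after fasting (edgeR), where 0.00559% of all genes, Nts alone, were called in each comparison. For the difference between the effects of fasting in NT-/- and NT+/+ mice, 0 of the 7 genes were called, against 0% of all genes. In this fit 0 of the 7 had an unadjusted p under 0.05 in these 3 comparisons, where 299, 1634 and 485 of all 17875 genes had one. DESeq2 called 0 of the 7 in each, against 4, 99 and 1 over all genes. The approximate SEs are large for the genes that varied most between mice. Ad libitum, the NT-/- to NT+/+ log2 fold change was 0.38 ± 0.79 (SE) for the Gsdmc sum, 0.32 ± 1.11 for Pla2g4c and -0.40 ± 1.10 for Retnlb, against -0.19 ± 0.16 for Il4ra and -0.003 ± 0.147 for Il13ra1. After fasting it was -0.61 ± 0.81 for the Gsdmc sum, -0.20 ± 2.40 for Pla2g4c, -0.01 ± 1.63 for Retnlb, -0.11 ± 0.15 for Il4ra and 0.22 ± 0.14 for Il13ra1. The difference between the effects of fasting (NT-/- less NT+/+) was -0.99 ± 1.14 for the Gsdmc sum, -0.53 ± 2.65 for Pla2g4c, 0.39 ± 1.99 for Retnlb, 0.08 ± 0.22 for Il4ra and 0.22 ± 0.20 for Il13ra1. The ad libitum comparison turns on single mice: for Pla2g4c it was 2.01 without NT+/+ AL 1 and -2.05 without NT-/- AL 2, and for the Gsdmc sum 1.45 and -0.49. Without the mice whose files are numbered 1 and 2, a choice made after the data were seen, Pla2g4c was at 1.55 ± 0.49 ad libitum, and the fasting effects of the genotypes differed by -1.61 ± 0.57 for the Gsdmc sum and by -1.90 ± 0.62 for Gsdmc4. In that fit 0 members were called in any of the 3 comparisons, where 2, 3 and 0 of all 18229 genes tested were called. Of the 6 members tested, 3 had an unadjusted p under 0.05 ad libitum, 0 after fasting and 2 for the difference. Over all 18229 genes, 331, 1238 and 359 had one. The members were picked on these mice and the fit was chosen afterwards, so nothing is read from these counts.

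Beneath the difference with feeding, the cluster varied between mice of 1 group in a way that ran through all 4 groups. Each file name holds a number from 1 to 5 that equals the number in the title except in NT-/- AL 3 and 4, whose file numbers are 4 and 5, and the labels do not say what it stands for. The mice with file numbers 1 and 2, singled out after their values were seen, had the highest Gsdmc sum and the highest Retnlb level of every group. They were labeled female, as were those numbered 4, which had 344, 608, 6.22 and 8.48 CPM of the Gsdmc sum. Those with file numbers 3 and 5 were labeled male, except NT-/- Fast 5, which has no sex label. The file number thus goes with the sex label. With the 4 groups as terms, Retnlb, Gsdmc4, Gsdmc2, Gsdmc3 and Pla2g4c were past the threshold between file numbers and Il4ra and Il13ra1 were not. Over all genes, 15.3% were past it. Since the members were picked on values of these mice, nothing is read from these calls. Without the mice numbered 1 and 2, 4 members were called with fasting in each genotype, namely Pla2g4c, Gsdmc2, Gsdmc3 and Gsdmc4. Over all 18229 genes tested in that fit, 1552 were called in NT+/+ and 1934 in NT-/- mice. Here too nothing is read from the count of members. Pla2g4c was then at -4.98 ± 0.64 (SE) in NT+/+ and -6.93 ± 0.70 in NT-/- mice, the Gsdmc sum at -5.24 ± 0.43 and -6.84 ± 0.48, Il13ra1 at -0.56 ± 0.17 and -0.45 ± 0.18 with its call in NT+/+ lost, and Retnlb was no longer tested.

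Markers of tuft cells, the chemosensory cells that start the type 2 response of the gut by releasing IL-25, moved with that variation. The 16 markers summed to 452, 182, 107, 96.0 and 90.0 CPM in NT+/+ AL and to 284, 308, 126 and 156 CPM in NT-/- AL. After fasting the sum was 374, 130, 153, 105 and 98.9 CPM in NT+/+ and 248, 304, 85.5, 194 and 127 CPM in NT-/- mice. The animal numbered 1 had the highest sum in each NT+/+ group and those numbered 1 and 2 in each NT-/- group, and the fed and fasted ranges overlapped. Between file numbers, 13 of the 15 tuft markers tested were called, among them Dclk1 (adjusted p = 0.0148, edgeR), the taste-pathway channel Trpm5 (adjusted p = 0.00845), the lineage regulator Pou2f3 (adjusted p = 0.0109) and Hmx2 (adjusted p = 0.00398). Ltc4s (adjusted p = 0.236) and Gnat3 (adjusted p = 0.0849) were not, and Il25 was too low to test, with means of 0.0819 to 0.147 CPM. Over all genes tested, 15.3% were called between file numbers. This list and the lists below were chosen with earlier results of these data known, so their calls are descriptions. With fasting, 0 of the 15 were called in NT+/+ and 0 in NT-/- mice (edgeR), 1 and 0 had an unadjusted p under 0.05, and DESeq2 called 0 in both. The median log2 fold change of the tuft markers was -0.04 in NT+/+ and -0.17 in NT-/- mice, against -0.01 and -0.02 over all genes tested.

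Dclk1, the usual marker of tuft cells, shows how the pattern differs from that of the cluster. It was at 131, 57.3, 31.8, 28.0 and 30.2 CPM in NT+/+ AL and at 110, 38.3, 44.8, 28.6 and 31.2 CPM in NT+/+ Fast. Its level in NT-/- mice was 82.2, 91.7, 37.6 and 53.9 CPM ad libitum and 72.5, 88.8, 25.7, 60.1 and 39.9 CPM after fasting. Fed and fasted mice thus covered like ranges of Dclk1 while their Gsdmc sums did not overlap. Markers of other cell types also differed between file numbers, with 7 of 10 goblet, 7 of 9 Paneth, 3 of 6 stem, 4 of 6 stromal and 3 of 6 type 2 leukocyte markers called. None of 8 enteroendocrine, 10 absorptive and 11 leukocyte markers were called. The share over all genes was 15.3%. The type 2 leukocyte markers called were Kit, Siglecf and Hpgds, of which Hpgds is also in the tuft list. Siglecf was highest in the same mouse of each group as Dclk1. It was there at 22.2 CPM (NT+/+ AL), 14.9 CPM (NT-/- AL), 15.9 CPM (NT+/+ Fast) and 15.7 CPM (NT-/- Fast). Which cells Siglecf came from was not tested. Gata3 (adjusted p = 0.638, edgeR), Mcpt1 (adjusted p = 0.399) and Mcpt2 (adjusted p = 0.796) were not called. What part any of these cell types had in the variation of the cluster was not tested.

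**Figure D4:**
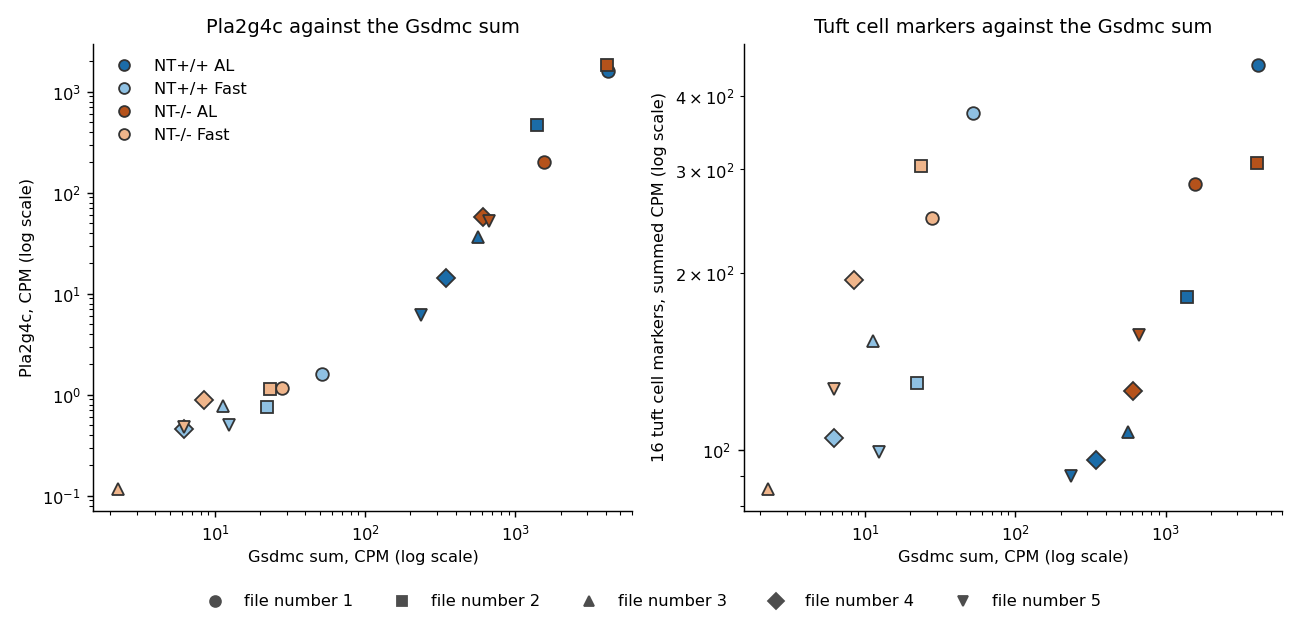
Left, Pla2g4c against the Gsdmc sum, and right, the summed level of 16 tuft cell markers against the Gsdmc sum, both in CPM on log axes, with 1 point per mouse, color for the group and marker shape for the number in the file name. On the right, fed and fasted mice form separate bands along the Gsdmc axis and both reach from under 100 to over 300 CPM of the tuft markers in NT+/+ mice.

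Across the 19 mice the log2 level of Pla2g4c went with that of the Gsdmc sum (Pearson r = 0.971, Spearman rho = 0.979), and it still did once the group means were taken out (r = 0.878, rho = 0.917). These points share the split between fed and fasted mice, and the correlations are descriptions. The count of Pla2g4c per Gsdmc count was not constant, at 0.391, 0.341, 0.0650, 0.0416 and 0.0264 in NT+/+ AL, 0.128, 0.451, 0.0948 and 0.0787 in NT-/- AL and 0.0312 to 0.105 in fasted mice. In each fed group it was thus highest in the mouse with the most Gsdmc. In each fasted group that mouse had the lowest value, 0.0312 in NT+/+ Fast 1 and 0.0419 in NT-/- Fast 1. Retnlb went with the Gsdmc sum less closely over all levels (r = 0.740) than within groups (r = 0.914), Il13ra1 at 0.753 and 0.50, and Il4ra at -0.442 and 0.060.

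The genes that are no members and were most like the Gsdmc sum over the 19 mice were Oxct1 (r = 0.979), Duox2 (0.960), Olfr418 (0.960), Dctn5 (0.954), A4gnt (0.951) and Sprr2a3 (0.951). For Pla2g4c they were AA467197 (0.973), Stn1 (0.972), Sprr2a3 (0.969), Clca1 (0.965), Oxct1 (0.954) and Capn13 (0.954). Once the group means were removed the order changed: Sucnr1 (0.967), Fut2 (0.958), Alox5 (0.948), Siglecf (0.939), Stk38l (0.939) and St6galnac6 (0.936) were most like the Gsdmc sum, of which Sucnr1 and Alox5 are in the list of tuft markers. Me1 (0.965), Clca1 (0.946), AA467197 (0.929), Gm8113 (0.919), St3gal6 (0.917) and Car4 (0.913) were then most like Pla2g4c.

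Of the cytokines that act through these receptors, little was detected. Il4 and Il13 had mean levels of 0.0304 to 0.0490 CPM in the 4 groups and were not tested, and Il9 and the decoy receptor Il13ra2 were at 0 counts in all mice. Of 20 receptors, cytokines and signaling genes of the type 2 pathway, 12 were tested. With fasting 1 was higher and 2 were lower in NT+/+, and 2 were higher and 2 lower in NT-/- mice, with a median log2 fold change of 0.06 and 0.19. Among all 17875 genes tested, 21.6% were called in NT+/+ and 25.2% in NT-/- mice, in either direction. The kinase Tyk2 fell by 0.31 ± 0.07 (SE; adjusted p = 0.00381, edgeR) in NT+/+ and by 0.32 ± 0.07 (adjusted p = 0.00345) in NT-/- mice. Stat6, the transcription factor of the pathway, fell by 0.19 ± 0.07 (adjusted p = 0.0497) and by 0.25 ± 0.07 (adjusted p = 0.0141). Irs2, an adaptor of both the insulin and the IL-4 receptors, rose by 0.62 ± 0.18 (adjusted p = 0.0197) and 0.87 ± 0.20 (adjusted p = 0.00323) on the log2 scale. Without the mice numbered 1 and 2, no gene of this list was called in NT+/+ mice and 2 were called, both higher, in NT-/- mice. That fit called 1552 and 1934 of all 18229 genes.

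Among 20 other epithelial genes known to respond to IL-4 and IL-13, 19 were in the files and 13 were tested. With fasting 6 fell and 0 rose in NT+/+ mice, and 6 fell and 1 rose in NT-/- mice, and the median log2 fold change was -1.0 and -1.14. Among all 17875 genes tested, 10.4% were called lower in NT+/+ and 12.6% in NT-/- mice. Clca1, a secreted goblet cell protein, was at 3959, 2217, 1283, 887 and 692 CPM in NT+/+ AL and at 2508, 3988, 1255 and 1113 CPM in NT-/- AL. In fasted mice it was at 736, 662, 662, 578 and 529 CPM (NT+/+) and at 649, 533, 418, 361 and 416 CPM (NT-/-), and its log2 fold change was -1.51 ± 0.40 (SE; adjusted p = 0.0093, edgeR) and -2.22 ± 0.42 (adjusted p = 0.000674). Like the cluster, Clca1 was lower in every fasted mouse than in any fed mouse of its genotype except that NT+/+ Fast 1 lay above NT+/+ AL 5, and it was highest in fed mice 1 and 2. The small proline-rich genes Sprr2a3 and Sprr2a2 fell by 3.70 ± 0.72 (adjusted p = 0.00109) and 2.35 ± 0.50 (adjusted p = 0.00231) in NT+/+ mice, and by 4.96 ± 0.81 (adjusted p = 0.000202) and 3.41 ± 0.54 (adjusted p = 0.000138) in NT-/- mice. Their division is uncertain, since the Sprr2a copies are near-identical. Mptx2, a pentraxin of Paneth cells, fell by 1.15 (adjusted p = 0.00932) and 1.75 (adjusted p = 0.000473). Without the mice numbered 1 and 2, 3 of 14 tested genes fell in NT+/+ and 5 of 14 in NT-/- mice. That fit called 572 and 780 of all 18229 genes lower.

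The other gasdermins and the pyroptosis genes did not follow the cluster. Of 14 tested, 1 rose and 6 fell with fasting in NT+/+ and 2 rose and 4 fell in NT-/- mice, with a median log2 fold change of -0.19 and -0.17. Gsdmd, the pore former cleaved by inflammatory caspases, was higher in fasted mice, at 79.0 ± 19.3 CPM (SD, n = 5) in NT+/+ AL against 144 ± 50 CPM (n = 5) in NT+/+ Fast, a log2 fold change of 0.87 ± 0.22 (SE; adjusted p = 0.00891, edgeR). In NT-/- mice it rose by 1.17 ± 0.24 (adjusted p = 0.00156). The inflammasome gene Nlrc4 fell by 0.32 ± 0.06 (adjusted p = 0.000808) in NT+/+ and by 0.32 ± 0.06 (adjusted p = 0.00115) in NT-/- mice. Without the mice numbered 1 and 2, 1 rose and 3 fell in NT+/+ and 2 rose and 1 fell in NT-/- mice.

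Among the other phospholipase A2 genes, 13 of 17 were tested, of which 1 rose and 3 fell with fasting in NT+/+ and 1 rose and 2 fell in NT-/- mice. The median log2 fold change was 0.16 in NT+/+ and -0.25 in NT-/- mice. Of all 17875 genes tested, 21.6% were called in NT+/+ and 25.2% in NT-/- mice, in either direction. Pla2g4a, the calcium-dependent enzyme of the same subfamily as Pla2g4c, fell from 20.7 ± 4.2 CPM (SD, n = 5) to 12.2 ± 3.0 CPM (n = 5) in NT+/+ mice, a log2 fold change of -0.76 ± 0.16 (SE; adjusted p = 0.00237, edgeR), and by 0.95 ± 0.17 (adjusted p = 0.000503) in NT-/- mice. Pla2g12b, a catalytically inactive secreted member, rose by 0.70 ± 0.12 (adjusted p = 0.000533) and 0.90 ± 0.13 (adjusted p = 7.4e-05). Pla2g4b fell by 1.07 ± 0.37 (adjusted p = 0.0381) in NT-/- mice and had a log2 fold change of -0.19 ± 0.34 (adjusted p = 0.739) in NT+/+ mice, and the difference between those effects was not past the threshold. Without the mice numbered 1 and 2, 1 rose and 1 fell in each genotype. In that fit 1552 of all 18229 genes were called in NT+/+ and 1934 in NT-/- mice. The 3 other resistin-like genes, Retn, Retnla and Retnlg, were at or near 0 and were not tested.

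Between the genotypes no tested gene of these lists was called by edgeR or DESeq2. Ad libitum, the unadjusted p was under 0.05 for 1 gene of the gasdermin list, 1 of the phospholipase list and 0 of the other lists. After fasting it was so for 3 genes of the receptor list, 0 of the responsive list, 1 of the gasdermin list and 3 of the phospholipase list. Over all 17875 genes tested, 299 had one ad libitum and 1634 after fasting.

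Some markers of other cell types changed with fasting beside the cluster. Of all 17875 genes tested, 21.6% were called in NT+/+ mice (10.4% lower) and 25.2% in NT-/- mice (12.6% lower). Absorptive enterocyte markers were higher, with 7 of 10 called in NT+/+ and 9 of 10 in NT-/- mice, all higher, and a median log2 fold change of 0.79 and 1.09. Their summed level was 4371 to 8810 CPM in NT+/+ AL, 6509 to 9659 CPM in NT-/- AL, 8361 to 17340 CPM in NT+/+ Fast and 15280 to 20520 CPM in NT-/- Fast. Of the goblet markers 1 was higher and 2 lower in NT+/+ and 1 higher and 3 lower in NT-/- mice, with summed levels of 9120 to 12720, 9335 to 14820, 9389 to 11060 and 7611 to 10070 CPM in NT+/+ AL, NT-/- AL, NT+/+ Fast and NT-/- Fast. Of the leukocyte markers 0 of 11 were called in NT+/+ (edgeR; 0 at an unadjusted p under 0.05 and 0 by DESeq2) and 1, higher, in NT-/- mice. Of the type 2 leukocyte markers 6 of 12 were tested and 0 were called in either genotype (0 and 1 at an unadjusted p under 0.05, 0 by DESeq2). Paneth markers had 0 higher and 1 lower of 9 in NT+/+ and 0 higher and 2 lower in NT-/- mice, enteroendocrine markers 1 higher and 0 lower of 8 and 1 higher and 2 lower, and stem cell markers 0 higher and 1 lower of 6 and 0 higher and 2 lower. Stromal markers had 0 of 6 called in both genotypes (edgeR, with 0 at an unadjusted p under 0.05 and 0 by DESeq2). Genes of the proximal small intestine had 1 higher and 1 lower of 6 in NT+/+ and 3 higher and 1 lower in NT-/- mice, and genes of the distal small intestine 4 higher and 0 lower of 7 and 3 higher and 1 lower. The part of these cells in the difference of the cluster was not tested.

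The nearest tested protein-coding genes on either side showed no difference of this size. The pseudogene Gsdmcl-ps, just after the cluster at 63914448 to 63925666, was also tested. Its log2 fold change with fasting was -2.72 ± 0.81 (SE) in NT+/+ and -3.47 ± 0.90 in NT-/- mice. It had at most 12 counts in NT+/+ Fast and 5 in NT-/- Fast mice, and it shares 14.2% of its 100-base windows with the family. Fam49b, the next tested protein-coding gene after the cluster, lies 16800 bases away at 63929097 to 64060478 of chromosome 15. It had a log2 fold change of -0.08 ± 0.08 (SE; adjusted p = 0.478, edgeR) in NT+/+ and -0.08 ± 0.08 (adjusted p = 0.522) in NT-/- mice. Myc, the next tested protein-coding gene before the cluster, lies 1785594 bases away at 61985391 to 61990374. It was at 0.90 ± 0.32 (adjusted p = 0.0539) and 0.46 ± 0.35 (adjusted p = 0.363). Beside Pla2g4c, the DNA ligase gene Lig1 (13277283 to 13311433 of chromosome 7, 13222 bases before it) fell by 0.45 ± 0.13 (adjusted p = 0.0158) and 0.67 ± 0.14 (adjusted p = 0.00127). Selenow, the next tested protein-coding gene on the other side, lies 2556536 bases away at 15917208 to 15922402. It rose by 0.76 ± 0.08 (adjusted p = 3.7e-06) and 0.73 ± 0.09 (adjusted p = 1.0e-05).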

How the data were processed

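Crypt RNA from 19 mice was sequenced as single 100-base reads. The authors trimmed reads with Trimmomatic 0.39 and quantified them with RSEM (version not given in the sources used here) against Ensembl transcripts of GRCm38. The deposited files give, for each gene, an expected count, in which a read that fits several genes is divided between them, and the authors' TPM, which corrects for length. Strand use in counting is not given in the sources used here. Of 55487 gene IDs, 55141 matched a symbol and position in GENCODE vM21.

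Expected counts were rounded and fitted with edgeR 4.0.16 (limma 3.58.1, R 4.3.3): filterByExpr kept 17875 genes, TMM factors were 0.867 to 1.06, and quasi-likelihood tests were run on 1 coefficient per group with 15 residual degrees of freedom and Benjamini-Hochberg adjustment over all genes tested (threshold 0.05). The biological coefficient of variation was 18.9%. The SE of a log2 fold change was approximated as its absolute value divided by the square root of its quasi-likelihood F statistic. Depth was 9059418 to 35068669 counts per mouse. A level of 3 counts was 0.0885 to 0.340 CPM, depending on the mouse. CPM values use the TMM-scaled totals, and log2 CPM for correlations has a prior count of 2. Groups came from the sample titles. For 1 mouse the title and genotype label disagree, and for 1 mouse no sex is labeled.

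The members and gene lists were chosen with earlier results of these data known. Named genes are all members, Nts, up to 3 called genes with the smallest p in each pathway list, the 6 genes most like the Gsdmc sum and the 6 most like Pla2g4c with mean log2 CPM of at least 0, with and without group means, and the nearest tested coding genes. Pla2g4b, which is not among the 3 called genes of its list with the smallest p, is named in addition. Further genes are named as markers of their lists. A gene that this rule names is not reported here. Alternatives were other filters, upper quartile scaling, DESeq2 1.42.0, blocks by title or file number, sex as a covariate, the genotype label, fits to the compared groups alone, pooled paralogs and each mouse left out. The fits were tested on simulated data. Sequence work used Python 3.11.15 and Biopython 1.88.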

Additional observations from a re-analysis of the deposited data

Results flagged for a closer look

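Both flags among the 36 groups of mice examined for a mouse that stands apart fell on Gsdmc. Where all other mice of a group are at 0, any count in 1 mouse is flagged. The usual chance rate of about 1 group in 20 therefore does not apply to these flags. The level of Gsdmc was 0.192 CPM in NT+/+ AL 1 and 0 CPM in the other 4 mice of that group. It was 0.0560 CPM in NT+/+ Fast 5 and 0 CPM in the other 4 mice of that group. These levels are 4 counts and 1 count.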

How the results depend on the processing

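The Gsdmc sum kept its direction and its call under 30 of 30 alternatives in both fasting comparisons, between -6.68 and -4.93 in NT+/+ and between -7.49 and -6.13 in NT-/- mice, and Pla2g4c, Gsdmc2, Gsdmc3 and Gsdmc4 kept theirs wherever they were tested. With at least 10 counts required in every mouse, 3 members were called in NT+/+ and 2 in NT-/- mice, since fewer members were then tested. Over all 13806 genes then tested, 3795 and 4361 were called. With 1 mouse left out, 5 to 6 members were called in NT+/+ and 4 to 5 in NT-/- mice, and 0 between genotypes. Over all genes tested, 3022 to 3973 were then called in NT+/+ and 3442 to 4757 in NT-/- mice. Between genotypes the Gsdmc sum ranged from -0.49 to 1.45 ad libitum and from -1.12 to 0.07 after fasting with 1 mouse left out, without a call. Retnlb passed the threshold under 9 of 26 alternatives in NT+/+ and 3 of 27 in NT-/- mice, Il13ra1 in NT-/- mice under 2 of 29 and Il4ra in NT-/- mice under 2 of 29. Il13ra1 lost its call in NT+/+ under 1 of 29, without the mice numbered 1 and 2. The cause of these changes was not tested. Between genotypes, members with an unadjusted p under 0.05 numbered 2 ad libitum without NT+/+ AL 1 and 1 after fasting without NT-/- Fast 3. Over all genes tested, 461 of 17757 and 1603 of 17798 had one in these fits.

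Leaving out the mice numbered 1 and 2, a choice made after the data were seen, lowered the calls over all genes from 3862 to 1552 in NT+/+ and from 4499 to 1934 in NT-/- mice. DESeq2 called 99 genes between the fasted genotypes against 1. Mice of like file number also share their sex label, wherever one is given. The deviations of same-numbered mice correlated at 0.184 on average for title numbers (-0.127 at the lowest, 27 pairs) and 0.227 for file numbers (0.0672 at the lowest). What the mice of a number have in common beyond sex is not labeled. With the title number as a replicate block the Gsdmc sum was at -5.65 and -6.88, 6 members were called in each genotype, and 5006 and 5657 genes were called. With the file number as a replicate block it was at -5.65 and -6.91, 6 and 5 members were called, and 5484 and 5672 genes were called. Both blocks brought Retnlb past the threshold in both genotypes (-3.04 and -3.03 with titles, -3.04 and -3.14 with file numbers), the title block also Il13ra1 in NT-/- mice (-0.36). For the difference between the effects of fasting, the Gsdmc sum was at -1.23 and -1.26 with the blocks, without a call. With each block 1 of 7 members had an unadjusted p under 0.05. Over all 17875 genes tested, 851 had one with the title block and 1013 with the file number block. Depth limits Gsdmc, Retnlb and the fasted Pla2g4c values, which rest on few counts.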
